A study of Rattus norvegicus with 6 samples.

Results

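The 10 genes described here belong to the response to double-stranded RNA and were read in cultured neural stem cells (NSCs). The members were taken by symbol from the expression tables: the receptors *Ddx58*, *Ifih1*, *Dhx58*, *Eif2ak2* and *Tlr3*, the adaptor *Mavs*, and the interferon regulatory factors *Irf1*, *Irf3*, *Irf7* and *Irf9*. All 10 were found, each as 1 of the 17315 rows, and all 10 passed the filter of a mean of at least 1 TPM (transcripts scaled to a fixed sum in each sample), which left 10331 genes for testing. The cells are the HCN line, cloned from the hippocampus of adult rats, so that a single clonal line stands for the NSCs of the tissue. By lipid transfection they received either a Stealth RNAi control duplex (siControl) or 1 Stealth RNAi duplex against *Derl1*, the gene of the endoplasmic reticulum protein Derlin-1 (siDerl1). Both groups then grew in bFGF and spent the last 2 days with BMP4, which drives these cells toward quiescence. Each group holds 3 samples, numbered 1 to 3, and no untransfected cells were among the 6 samples. Both groups thus carried a transfected duplex, and with a single duplex against *Derl1*, the duplex and the loss of Derlin-1 cannot be told apart. The labels do not say whether the numbers mark separate cultures, so the p values measure the spread between these samples only.

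Cells detect double-stranded RNA in several compartments. In the cytosol, RIG-I (*Ddx58*) and MDA5 (*Ifih1*) bind such RNA and signal through MAVS, a protein of the mitochondrial surface, while LGP2 (*Dhx58*), which lacks their signalling domains, modulates both. PKR (*Eif2ak2*) binds long duplexes and phosphorylates eIF2 alpha, which lowers translation, and TLR3 reads duplexes in the endosome. MAVS and TLR3 lead to the activation of IRF3 and IRF7, the factors that switch on interferon genes, and secreted interferon acts through IRF9 and its STAT partners on genes that include most of the sensors themselves.

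The targeted gene was lower in each siDerl1 sample. *Derl1* was at 122, 132 and 128 TPM in the siControl samples 1, 2 and 3 and at 44.9, 70.8 and 74.0 TPM in the siDerl1 samples. The difference within a number was −1.42, −0.89 and −0.78 on the log2(TPM + 1) scale. All 12 markers listed for NSCs were above 1 TPM in some sample, *Sox2* and *Nes* among them. Of the 6 oligodendrocyte markers *Sox10* reached 787 TPM, whereas *Mog* was listed at 0 in all samples. The 13 microglia markers summed to between 5.01 and 9.36 TPM per siControl sample and between 5.80 and 7.96 TPM per siDerl1 sample, with 11 of the 13 never above 1 TPM and *Cx3cr1*, *C1qa*, *C1qb*, *Trem2* and *Tyrobp* listed at 0 throughout. TPM are shares of a fixed sum and keep no read numbers, so the depth behind each value is unknown.

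The sample number moved most of these genes more than the siRNA did. Both samples numbered 1 lay below the other 4 for 8 of the 10 members, the exceptions being *Mavs* and *Irf3*. The same was true of 17.0% of all genes tested. In a limma fit with the siRNA group as a covariate, an F test of the number over all genes called 8 of the 10 members at an adjusted p under 0.05, against 10.6% of all genes tested. The members it did not call were *Tlr3* (adjusted p = 0.109) and *Mavs* (adjusted p = 0.723). The smallest adjusted p values belonged to *Dhx58* (5.6e-06) and *Ddx58* (9.9e-05). The numbers are labels shared by both groups, and what they stand for is not stated. Other genes moved with them, among them 9 of the 12 NSC markers by the same F test; *Sox9* was lower in the samples numbered 1, at 7.50 and 9.42 TPM against 34.7 to 38.3 TPM in the others, and *Fabp7* higher, at 196 and 220 TPM against 97.3 to 132 TPM. Both samples numbered 1 lay below the other 4 for 6 of the 12. The F test also called 2 of the 3 tested astrocyte markers, *S100b* and *Gfap*, and 1 of the 4 tested oligodendrocyte markers, *Sox10*. The part of cell state or culture in the sensor values was not tested. In bulk RNA, fewer expressing cells and less RNA per cell cannot be told apart.

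Without regard to the number, no difference between siDerl1 and siControl NSCs was detected for any member. The limma fit on log2(TPM + 1) over the 3 samples of each group called 0 of the 10, with 0% of all genes called. At an unadjusted p under 0.05 the members were again 0, against 6.70% of all genes. For none of the members did the groups stand apart, where siDerl1 was wholly above siControl for 5.09% of all genes and wholly below for 8.52%. The median log2 difference over the 10 members was 0.21, against −0.02 over all genes tested. It turned to −0.19 without siControl sample 1, and was 0.68 without siDerl1 sample 1. Compared within numbers, 4 of the 10 members were higher in siDerl1 NSCs in each of the 3 pairs (*Dhx58*, *Irf1*, *Irf3* and *Irf7*), against 15.8% of all genes. *Tlr3* and *Mavs*, 2 of the 10, were lower in each pair, against 22.1%. With the number as a block, limma called 1 of the 10 higher, *Dhx58*, where 0.194% of all genes were called higher. With no intensity trend, or with no filter on low values, the block fit called 0 genes higher. It called 0 of the 10 lower, where 0.358% of all genes were. At an unadjusted p under 0.05 in the block fit, 7 of the 10 passed, against 15.7% of all genes. Of the 3 tested astrocyte markers the block fit called *Gfap* (log2 difference 0.62, limma adjusted p = 0.0219). *Gja1* differed by 0.35 and *S100b*, the most abundant, by 0.01, and neither was called. *Aqp4* and *Aldh1l1* never exceeded 0.2 TPM. The 5 astrocyte markers summed to between 490 and 730 TPM per siControl sample and between 498 and 779 TPM per siDerl1 sample. Of the 12 NSC markers 8 were higher in siDerl1 NSCs and 4 lower, with *Hes5* the largest (log2 difference 0.94, limma adjusted p = 0.844, and 0.231 with the block). Of the 4 tested neuron markers 1 was higher and 3 lower. Among the NSC and neuron markers, *Nes*, *Dcx* and *Syt1* were wholly lower in siDerl1 NSCs and *Tubb3* wholly higher, and none of these 4 was called by either fit. The part of these markers in the sensor values was not tested.

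**Figure D1:**
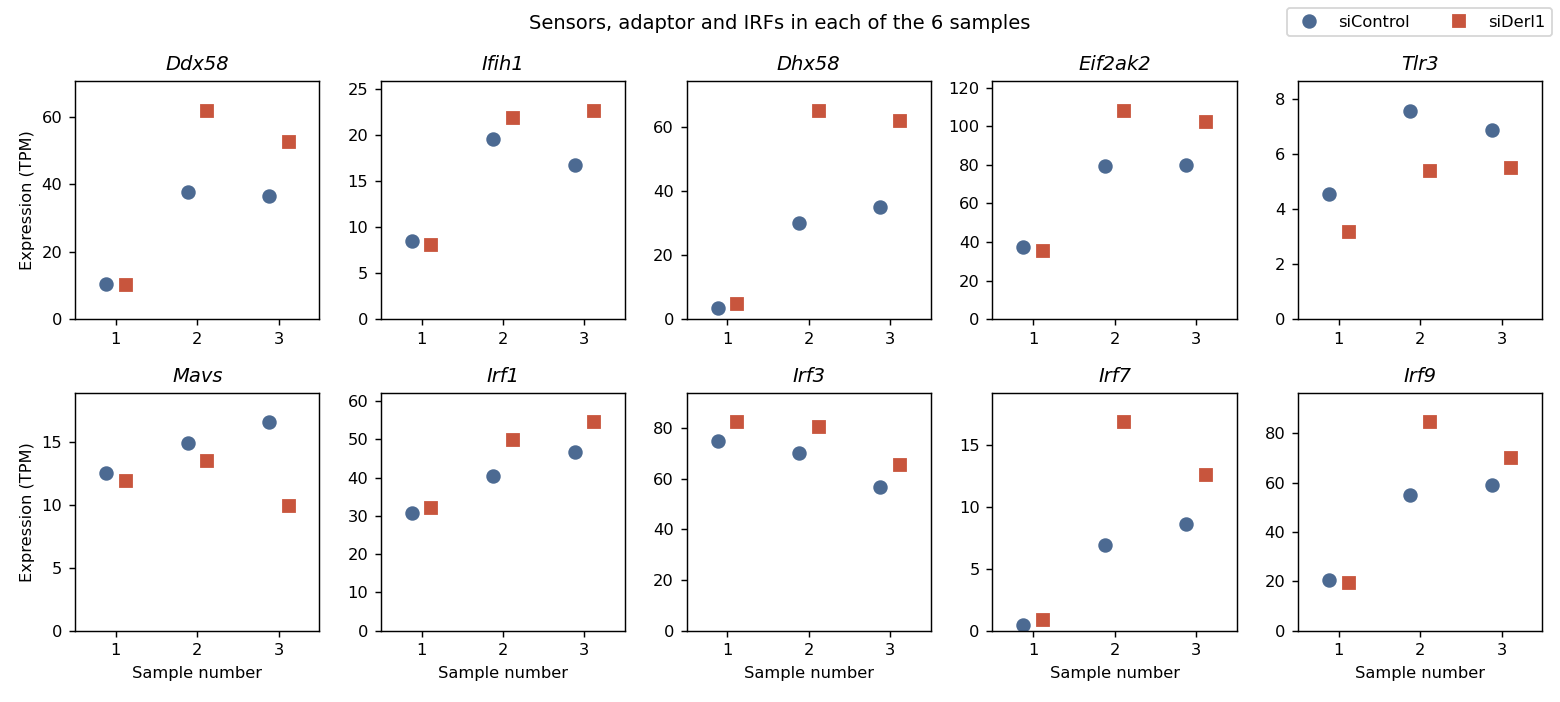
Expression in TPM on a linear axis from 0 (vertical) against sample number (horizontal) for the 10 genes, 1 panel each, with circles for the 3 siControl and squares for the 3 siDerl1 samples. Apart from *Mavs* and *Irf3*, both samples numbered 1 are the lowest; *Tlr3* and *Mavs* have the siDerl1 square under the siControl circle at each number.

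*Ddx58* (NM_001106645) encodes RIG-I. The siControl samples 1, 2 and 3 held 10.4, 37.9 and 36.5 TPM, and the siDerl1 samples 10.03, 61.9 and 52.6 TPM. Both samples numbered 1 were thus about equal, and both other siDerl1 samples were above every siControl sample. Over the groups this gave 28.3 ± 15.5 and 41.5 ± 27.7 TPM (SD, n = 3). The groups differed by 0.39 on the log2 scale, less than the standard error of 0.74 (limma adjusted p = 0.953). The block lowered the standard error to 0.14, and the adjusted p from limma was 0.220.

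*Ifih1* (NM_001109199), which encodes MDA5, was below *Ddx58* in every sample. It was at 8.49, 19.5 and 16.7 TPM with the control duplex and at 8.07, 21.8 and 22.6 TPM with the *Derl1* duplex. The within-number differences were −0.07, 0.15 and 0.41 on the log2(TPM + 1) scale. Their mean, 0.17, had an adjusted p from limma of 0.962, and of 0.568 with the block.

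*Dhx58* (NM_001098788), the gene of LGP2, differed 19.6 times in TPM between its lowest and highest sample. Its 3 siControl values were 3.32, 29.8 and 34.9 TPM, and its siDerl1 values 4.81, 65.0 and 61.7 TPM, so that the siDerl1 sample was higher at each number. The siDerl1 samples 2 and 3 were 2.18 and 1.76 times their siControl counterparts, and sample 1 was 1.45 times its own. The log2 difference of 0.78 had a standard error of 1.13 without the block (limma adjusted p = 0.936) and of 0.13 with it (limma adjusted p = 0.046). That call rested on the settings: with the block, the adjusted p from limma was 0.24 when the fit had no intensity trend, 0.188 with no filter on low values and 0.072 after median-of-ratios scaling. Without the samples numbered 2 or those numbered 3 it was 0.139 and 0.182.

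Relative to *Ddx58*, which TPM allows because it is corrected for length, *Dhx58* was at a ratio of 0.32, 0.79 and 0.96 in siControl samples 1, 2 and 3. The ratio in the siDerl1 samples was 0.48, 1.05 and 1.17. *Dhx58* was therefore the lesser transcript of the 2 in all siControl samples and the greater one in siDerl1 samples 2 and 3. *Ifih1* went the other way, from 0.82 and 0.80 of the *Ddx58* level in both samples numbered 1 to between 0.35 and 0.52 in the other 4.

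*Eif2ak2* (NM_019335), which encodes PKR, was the most abundant of the 5 receptors in every sample. Its TPM were 37.6, 79.6 and 80.0 in the siControl samples and 35.6, 108 and 102 in the siDerl1 samples. Samples numbered 1 were again close to each other, and the siDerl1 samples 2 and 3 exceeded their counterparts by 1.36 and 1.28 times. Over the groups the difference was 0.24 on the log2 scale (standard error 0.47, limma adjusted p = 0.953, and 0.294 with the block).

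*Tlr3* (NM_198791), the endosomal receptor, was the one receptor with lower siDerl1 values at each number. It was at 4.54, 7.56 and 6.86 TPM in siControl samples 1, 2 and 3, and the siDerl1 samples had 3.15, 5.37 and 5.48 TPM. The siDerl1 sample held 0.694, 0.710 and 0.799 of its siControl counterpart, while the groups overlapped because siControl sample 1 was below siDerl1 samples 2 and 3. The log2 difference was −0.37, with a 95% confidence interval from −0.96 to 0.22 (limma adjusted p = 0.822). With the block the interval was −0.73 to −0.02 and the adjusted p from limma 0.298. *Tlr3* thus did not pass the test, and its level per length was between 0.19 and 0.44 of that of *Ddx58* in siControl samples and between 0.09 and 0.31 in siDerl1 samples.

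*Mavs* (NM_001005556), the adaptor that RIG-I and MDA5 share, did not follow the sample number. It gave 12.5, 14.9 and 16.5 TPM under the control duplex and 11.9, 13.5 and 9.93 TPM under the *Derl1* duplex. Each siDerl1 sample was the lower of its pair, by 0.07 and 0.14 on the log2(TPM + 1) scale at numbers 1 and 2 and by 0.68 at number 3. The log2 difference of −0.30 (standard error 0.16) had the smallest adjusted p among the 10 members without the block, 0.769 from limma, and the exact permutation test gave a two-sided p of 0.2 where 0.1 is the smallest that 3 against 3 samples can give. The level of *Mavs* was 1.203 and 1.181 times that of *Ddx58* in the samples numbered 1, and from 0.19 to 0.45 times in the other 4.

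All 4 interferon regulatory factors had a log2 difference above 0, and none of them passed the test. *Irf3* (NM_001006969), which is present before any signal and is activated by phosphorylation, was at 74.8, 70.1 and 56.8 TPM in siControl samples 1, 2 and 3. The siDerl1 samples had 82.2, 80.5 and 65.5 TPM, higher by between 1.10 and 1.15 times at each number. Both samples numbered 3 were the lowest of their group. Their mean log2 difference was 0.18 (standard error 0.13, limma adjusted p = 0.844), while the block gave a standard error of 0.06 (limma adjusted p = 0.22).

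*Irf7* (NM_001033691), whose own transcription is raised by interferon, had the largest ratio of highest to lowest TPM among the 10 members. Values of 0.43, 6.93 and 8.58 TPM were measured with the control duplex and of 0.88, 16.8 and 12.6 TPM with the *Derl1* duplex. The ratio of 39.0 rests on a sample under 1 TPM, where the unknown depth limits any ratio. Each siDerl1 sample was above its counterpart, by 0.39, 1.17 and 0.50 on the log2(TPM + 1) scale. The log2 difference of 0.69 had a standard error of 1.01 and an adjusted p of 0.936 from limma, and with the block 0.20 and 0.159. Set against *Irf3*, the *Irf7* level was 0.006 and 0.011 in the samples numbered 1 and between 0.10 and 0.21 in the others.

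*Irf9* (NM_001012041), the DNA-binding subunit of the complex that type I interferon activates, was at 20.6, 55.2 and 58.9 TPM in the siControl samples. The siDerl1 samples 1, 2 and 3 had 19.2, 84.4 and 69.8 TPM, so the direction turned between number 1 and the others. The log2 difference was 0.25 (standard error 0.60, limma adjusted p = 0.960, 0.355 with the block).

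*Irf1* (NM_012591), a factor induced by interferon gamma, moved less. Its siControl samples were at 30.8, 40.4 and 46.6 TPM and its siDerl1 samples at 32.1, 49.7 and 54.4 TPM. The difference was above 0 at each number, at 0.06, 0.29 and 0.22 on the log2(TPM + 1) scale, and had an adjusted p of 0.923 from limma (0.296 with the block). From the lowest to the highest sample *Irf1* spanned 1.77 times, against 1.45 for *Irf3* and 1.66 for *Mavs*.

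**Figure D2:**
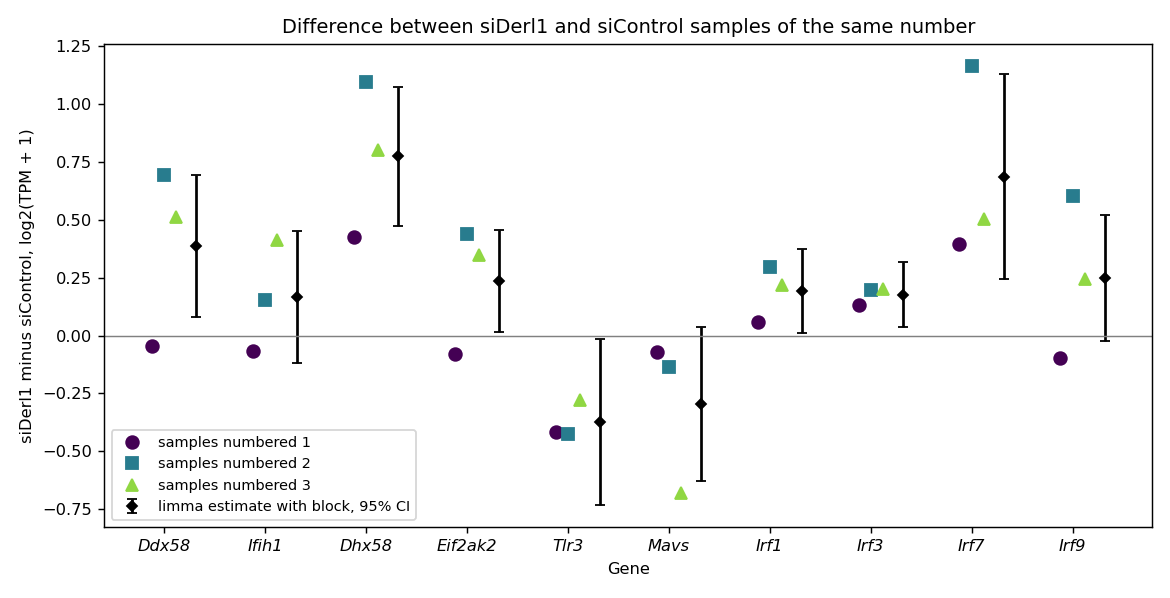
Difference on the log2(TPM + 1) scale between the siDerl1 and the siControl sample of the same number (vertical) for each gene (horizontal), with 1 symbol per number and a diamond with a bar for the limma estimate and its 95% confidence interval in the block fit. *Ddx58*, *Ifih1*, *Eif2ak2* and *Irf9* lie just under 0 at number 1 and above 0 at numbers 2 and 3; *Tlr3* and *Mavs* lie under 0 at each number.

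Between numbers the siRNA difference was thus unequal. The median difference over the 10 members was −0.06, 0.37 and 0.30 on the log2(TPM + 1) scale for numbers 1, 2 and 3, where the median of all genes tested was 0.01, −0.03 and −0.03. *Derl1* itself had its largest difference at number 1. Each number holds 1 sample per group, so this inequality has no replicates and was not tested. With both samples numbered 1 left out, 9 of the 10 members no longer overlapped between the groups: 7 were higher in siDerl1 NSCs, against 16.3% of all genes, and *Tlr3* and *Mavs*, 2 of the 10, were lower, against 26.5%. In that fit limma called 1 of the 10 higher (*Dhx58*, log2 difference 0.95, adjusted p = 0.0167), where 0.232% of all genes were. With the block as well, which leaves 2 pairs, it called 5 of the 10 higher (*Ddx58*, *Dhx58*, *Eif2ak2*, *Irf7* and *Irf9*), where 2.04% of all genes were. The samples numbered 1 stood apart in these same values, so the fits without them are no independent test. These fits were not repeated with no trend or no filter.

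The order of the levels differed between numbers. In both samples numbered 1 the order began with *Irf3*, *Eif2ak2*, *Irf1* and *Irf9*, then *Mavs*, *Ddx58* and *Ifih1*, and ended with *Irf7*. *Tlr3* and *Dhx58* were close to each other there and changed places between the groups. In the other 4 samples *Eif2ak2* came first. *Irf9* and *Irf3* followed it in changing order, with *Irf9* at 0.79 to 1.07 of the *Irf3* level, then *Ddx58*, *Dhx58* and *Irf1*, whose order also changed from sample to sample. *Ifih1* was in seventh place in all 6 samples, above *Mavs*, *Tlr3* and *Irf7* in the 4 samples not numbered 1. *Tlr3* and *Irf7* had overlapping levels in siControl samples 2 and 3.

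The letters of interferon-responsive elements were looked for in the promoters of these genes, because most of them moved together between numbers. RefSeq windows of the assembly GRCr8, each 250 bases before and 50 bases from a transcript start, were at hand for 8 members and not for *Ddx58* and *Dhx58*. The first motif was the core of the interferon-stimulated response element (ISRE), GAAA followed by any 2 bases and again GAAA, which the complex that holds IRF9 binds. It was found on either strand in 3 of the 8 windows, those of *Ifih1*, *Eif2ak2* and *Irf7*, and in 3.92% of the 33469 windows of the table. The second was the core of the gamma-activated site (GAS), TTCNNNGAA, which reads the same on both strands and is known from genes that interferon gamma induces. It was found in *Irf1* and *Irf9*, 2 of the 8, and in 8.87% of all windows. *Tlr3*, *Mavs* and *Irf3* held neither set of letters in their windows. Only 1 start per gene was searched, and a match of letters is a description of the window.

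The 5 stretches that hold a match are shown to place the letters, as the 150 bases just before the start, 5′ to 3′ on the strand of the gene, with the match in capitals. The GRCr8 positions are chr3:67683969-67684118 (minus strand) for *Ifih1*, chr6:21941004-21941153 (plus) for *Eif2ak2*, chr1:205800024-205800173 (minus) for *Irf7*, chr10:38417785-38417934 (plus) for *Irf1* and chr15:33065686-33065835 (plus) for *Irf9*.
Ifih1: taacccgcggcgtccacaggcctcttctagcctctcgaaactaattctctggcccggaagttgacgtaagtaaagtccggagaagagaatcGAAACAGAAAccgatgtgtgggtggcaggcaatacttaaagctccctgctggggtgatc
Eif2ak2: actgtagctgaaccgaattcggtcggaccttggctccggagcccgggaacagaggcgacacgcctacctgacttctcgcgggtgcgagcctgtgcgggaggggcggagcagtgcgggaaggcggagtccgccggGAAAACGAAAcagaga
Irf7: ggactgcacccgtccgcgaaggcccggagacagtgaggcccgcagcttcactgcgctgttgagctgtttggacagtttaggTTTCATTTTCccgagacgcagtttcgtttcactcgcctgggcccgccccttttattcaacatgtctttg
Irf1: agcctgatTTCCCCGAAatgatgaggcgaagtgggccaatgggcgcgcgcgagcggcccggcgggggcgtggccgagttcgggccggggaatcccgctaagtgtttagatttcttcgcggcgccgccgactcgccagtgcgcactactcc
Irf9: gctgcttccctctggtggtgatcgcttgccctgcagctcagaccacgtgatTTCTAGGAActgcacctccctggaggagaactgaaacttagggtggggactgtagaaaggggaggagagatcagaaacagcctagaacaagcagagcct
The match in *Eif2ak2* ends 7 bases before the start, nearer than the other 4. Those of *Ifih1* and *Irf7*, the latter on the opposite strand, end 50 and 60 bases before it. The GAS letters of *Irf9* and *Irf1* lie farther, ending 91 and 134 bases before the start.

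**Figure D3:**
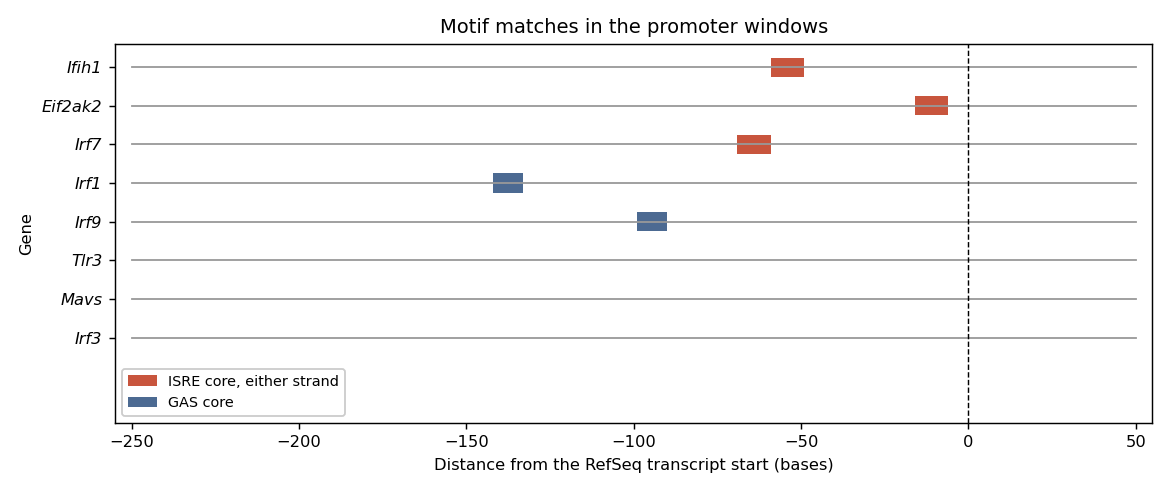
Position of the motif matches in the 8 promoter windows, as distance in bases from the RefSeq transcript start (horizontal; dashed line at 0) for each gene (vertical), with 1 colour for the ISRE core and 1 for the GAS core. Matches lie in the windows of *Ifih1*, *Eif2ak2*, *Irf7*, *Irf1* and *Irf9*, and none in those of *Tlr3*, *Mavs* and *Irf3*.

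The genes around these members were counted by list. Transcripts of interferons themselves were not seen in the rows at hand: the 6 rows that hold interferon genes of the list, *Ifnb1* and *Ifng* among them, were listed at 0 in all 6 samples. *Ifna11*, *Ifne*, *Ifnl1* and *Ifnl3* of the list had no row and could not be seen. Of the receptors and JAK-STAT genes 9 were tested, and 4 were higher in siDerl1 NSCs and 5 lower, with 0 called. *Il10rb*, a receptor chain of interleukin 10 and lambda interferons, had a log2 difference of 0.24 (limma adjusted p = 0.769).

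Below the sensors, 16 genes that carry or shape the signal of MAVS and TLR3 were tested. Of these 4 were higher and 12 lower in siDerl1 NSCs, with a median log2 difference of −0.06 against −0.02 over all genes tested, and 0 were called with or without the block. The kinase genes *Tbk1* and *Ikbke*, whose products phosphorylate IRF3, had log2 differences of −0.10 and 0.32 (adjusted p = 0.877 and 0.828 from limma). Genes of 2 ubiquitin ligases of RIG-I differed in pattern. *Trim25*, the only gene of this list that the F test of the number called, was at 6.63, 15.1 and 17.3 TPM in siControl samples 1, 2 and 3 (5.67, 20.1 and 21.1 TPM with siDerl1). *Rnf135*, the gene of Riplet, was at 10.1, 9.59 and 7.55 TPM in the siControl samples and at 7.68, 7.65 and 5.79 TPM with siDerl1, lower at each number (log2 difference −0.33, limma adjusted p = 0.766). *Tbk1*, *Trim25* and, below, *Ago2* and the kinases beside PKR were named after their values had been seen.

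Among 14 tested genes of other nucleic acid sensors, 6 were higher and 8 lower, against 4674 and 5657 of all 10331 genes tested. The block fit called 1 of the 14 higher, against 0.194% of all genes. This was *Oas1a*, an oligoadenylate synthetase that double-stranded RNA activates, at 1.11, 85.2 and 99.7 TPM in siControl samples and at 2.59, 160 and 151 TPM in siDerl1 samples (log2 difference 0.75, adjusted p from limma 0.962 without and 0.0132 with the block, a call lost with no trend or no filter). *Oasl* differed by 0.42, with adjusted p values from limma of 0.960 and 0.118 in the same 2 fits. The groups stood apart, siDerl1 lower, for 3 of the 14, against 8.52% of all genes: these were the RNA helicase genes *Dhx15*, *Dhx9* and *Ddx3x*, named after their values had been seen, with log2 differences of −0.21, −0.18 and −0.12 (adjusted p from limma 0.704, 0.704 and 0.739). *Tlr7* and *Tlr8* were listed at 0 in every sample.

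Of 13 tested brakes on the pathway 9 were higher and 4 lower, against 4674 and 5657 of all 10331 genes tested. Of the 13, 1 was called higher with the block, *Usp18*, against 0.194% of all genes. *Usp18*, which removes ISG15 and limits interferon receptor signalling, was at 0.81, 78.1 and 67.5 TPM in the siControl samples and at 2.21, 171 and 150 TPM in the siDerl1 samples, with a log2 difference of 1.03 (adjusted p from limma 0.953, and 0.00575 with the block, likewise lost with no trend or no filter). *Trim21*, the next largest, had a log2 difference of 0.44 (limma adjusted p = 0.934).

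Of 12 tested genes that act around PKR, the other eIF2 alpha kinases among them, 2 had a log2 difference above 0 and 10 below 0, with 0 called; over all 10331 genes tested, 4674 were above and 5657 below. *Dnajc3*, the gene of the PKR inhibitor p58IPK, was at 48.6, 62.2 and 67.9 TPM with the control duplex and at 40.5, 50.4 and 50.2 TPM with the *Derl1* duplex. It was lower at each number, with a log2 difference of −0.33 and adjusted p values from limma of 0.740 without and 0.0899 with the block. *Ppp1r15b*, a subunit of the phosphatase of eIF2 alpha, had a log2 difference of −0.14 (limma adjusted p = 0.789). The other eIF2 alpha kinases, *Eif2ak1*, *Eif2ak3* and *Eif2ak4*, had log2 differences between −0.09 and −0.01.

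*Irf2* and *Irf4* were the 2 other interferon regulatory factors tested, with log2 differences of 0.00 and 0.05, and *Irf5* and *Irf8* had a mean under 1 TPM. Of 11 tested genes of the RNA interference machinery, 5 were higher and 6 lower and 0 were called by either fit. *Tnrc6b* and *Ago1* had the largest differences, −0.24 and −0.23 (adjusted p from limma 0.740 and 0.704), with siDerl1 wholly below siControl, and *Ago2*, the slicing Argonaute, was at 29.5, 31.3 and 31.7 TPM in the siControl samples and at 38.8, 31.5 and 26.2 TPM in the siDerl1 samples.

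For the effectors that interferon induces, 22 of the 22 tested genes were higher in siDerl1 NSCs in mean log2 value, with a median of 0.38 and 0 called. The block fit called *Mx1*, *Mx2*, *Oas1a* and *Usp18* higher, 4 of the 22 against 0.194% of all genes, of which *Oas1a* and *Usp18* also stand in lists above; with no trend or no filter it called 0 of them. The medians of the 22 genes were −0.02, 0.61 and 0.77 at numbers 1, 2 and 3, and the F test of the number called 21 of them, against 10.6% of all genes.

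**Figure D4:**
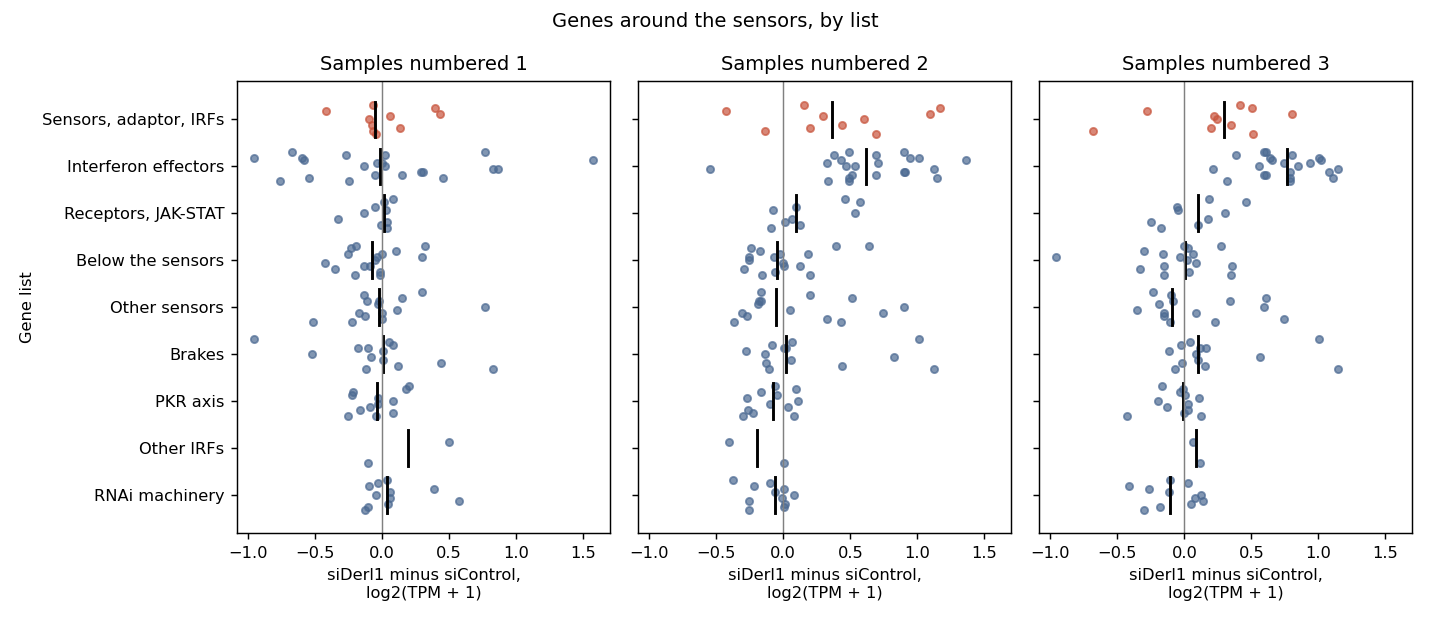
Difference between the siDerl1 and the siControl sample on the log2(TPM + 1) scale (horizontal) for each tested gene of 9 lists (vertical), with 1 panel per sample number, 1 point per gene and a black line at the list's median. At numbers 2 and 3 the medians of the 10 members and of the interferon effectors are the highest of the lists, at 0.37 and 0.30 and at 0.61 and 0.77; at number 1 both are near 0.

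The profiles over the 6 samples were last compared by the distance between log2(TPM + 1) values, each gene centred on its own mean. Among the members the closest were *Ifih1* and *Eif2ak2* (distance 0.25), *Eif2ak2* and *Irf9* (0.47), *Ddx58* and *Irf9* (0.50), and *Dhx58* and *Irf7* (0.51). *Irf3* and *Mavs* were 4.04 and 3.82 away from *Dhx58*. Of all genes tested, the 5 nearest to *Ddx58* were *Ifitm3*, *Igtp*, *Ifit2*, *Parp9* and *Trim34*, at distances from 0.20 to 0.43. For *Eif2ak2* they were *Tapbp*, *Lgals3bp*, *Stat2*, *Trim25* and *Ifih1*, from 0.13 to 0.25, and for *Irf7* they were *Ifit3*, *Ifi44*, *Dhx58*, *Oasl* and *Oas1b*, from 0.47 to 0.54. These distances describe 6 samples, of which those numbered 1 stand apart, and RSEM may split reads among paralogs of the Oas and Ifit families.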

How the data were processed

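Poly(A) RNA of 6 samples, 3 siControl and 3 siDerl1, was sequenced on an Illumina HiSeq X from strand-specific libraries. By the submitters' processing notes the authors used Trimmomatic 0.39 for trimming, STAR 2.7.3a with rn6 for mapping and RSEM 1.3.2 for estimating expression. The deposited values are TPM rounded to 2 decimals, and they keep no depth.

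Here limma (version 3.58.1, R 4.3.3; lmFit and eBayes with an intensity trend, Benjamini-Hochberg adjustment) was run on log2(TPM + 1) for the 10331 genes whose mean TPM reached 1. On that scale the change of weakly expressed genes is understated. Groups were taken from the sample titles. Alternatives were the sample number as a block, a pseudocount of 0.1, no filter, a filter at a mean of 5 TPM, median-of-ratios scaling, no trend, each sample left out and both samples numbered 1 left out. The block with a pseudocount of 0.1, the filter at 5 TPM, scaling, or without numbers 2 or 3 was chosen after seeing the data. The fits were checked on simulated data.

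The sample numbers in the titles were taken as pairs. Deviations from the group means correlated at 0.70, 0.35 and 0.51 between samples of the same number. Numbers 2 and 3 also correlated across, at 0.34 and 0.25. The correlations thus set number 1 apart and do not show that 2 and 3 are pairs. They come from the same values as the block fit. Promoters came from RefSeq GRCr8. Genes named are the 10 members, *Derl1*, genes called and the 2 largest differences of each list, and the 5 nearest profiles. Items withheld from the text are not reported here. Members and lists were chosen with earlier results of these data known.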

Additional observations from a re-analysis of the deposited data

How the results depend on the processing

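The count of members called was 0 in the unblocked fits, whether the pseudocount was 0.1, the filter was dropped or set at 5 TPM, median-of-ratios scaling was used or the intensity trend left out, and 0 with any 1 sample left out. It was 1 with the replicate block, 1 with the block and a pseudocount of 0.1, 1 with the block and the filter at 5 TPM, and 1 without number 1 in both groups, in each case *Dhx58*; it was 5 with the block and without number 1, a fit on 2 pairs. The block gave 0 with no trend, no filter, scaling, or without number 2 or 3. With all 6 samples the block left the log2 fold changes as they were and changed no call among the members but that of *Dhx58*; without number 1 it added *Ddx58*, *Eif2ak2*, *Irf7* and *Irf9*. Leaving out 1 sample breaks a pair, and the median log2 fold change of the members then ranged from −0.19 (without siControl sample 1) to 0.68 (without siDerl1 sample 1), and was −0.04 without siDerl1 sample 2. Directions turned for *Ddx58* (−0.19 to 1.19), *Ifih1* (−0.17 to 0.62), *Dhx58* (−0.21 to 1.93), *Eif2ak2* (−0.12 to 0.75), *Irf7* (−0.18 to 1.70) and *Irf9* (−0.22 to 0.90), and not for *Tlr3*, *Mavs*, *Irf1* and *Irf3*. The F test of the number called between 7 and 8 members with 1 sample left out (5.89% to 15.4% of all genes), 7 with no filter (4.61%) and 6 with no trend (2.44%). Groups stood apart for 0 members, where siDerl1 was wholly higher for 5.09% of all genes and wholly lower for 8.52%. Without number 1 they stood apart for 9 members: 7 were higher, against 16.3% of all genes, and 2 were lower, against 26.5%.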
